A study of Mus musculus with 4 samples.

Results

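The 10 genes described here encode core proteins of the piRNA pathway. They are Asz1, Mael, Tdrd1, Tdrd9, Tdrd12, Piwil1, Piwil2, Piwil4, Mov10l1 and Gtsf1, picked by name out of 21631 protein-coding genes of the autosomes and X. CpG methylation was read over each gene and 3 kb on either side, in whole-genome bisulfite libraries of mouse embryonic stem cells (mESC). Both groups carried floxed alleles of Ogt (Ogt fl/fl), the gene of the O-GlcNAc transferase, and were grown with LIF on mitomycin C-treated fibroblast feeders. The 2 Ogt iKO libraries came from cells given 4-OHT, the ligand that induces the deletion, for 6 days. The 2 control libraries came from the same floxed cells kept without 4-OHT for 6 days. YFP-positive cells were sorted only from the 4-OHT-treated cultures, so the loss of Ogt, the drug and that gate cannot be told apart. Per the labels, sorting took CD90.2 as the positive marker of mESC and CD326 to exclude feeders. CD326 (EpCAM) is commonly known as a marker of mESC and CD90.2 of fibroblasts, so which cells the sort kept is uncertain from the labels, and how far feeders were removed was not tested. The driver of the recombinase and the number of independent clones are not given in the sources used here. Replicates carry numbers, but the labels do not say that they were separate cultures, so the tests may measure technical spread alone.

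piRNAs are small RNAs of the germ line that guide PIWI proteins to transposon transcripts. PIWI proteins cut those transcripts in the cytoplasm, and the nuclear PIWI protein of fetal male germ cells directs DNA methylation to transposons. The genes of the pathway are expressed in germ cells, and in most other cells their promoters carry methylated CpGs, which is unusual for CpG-rich promoters. In embryonic stem cells many germline promoters are also bound by a Polycomb complex that contains MGA-MAX and E2F6. OGT binds the TET enzymes, which oxidise 5-methylcytosine, and the study's design asks how loss of OGT alters DNA methylation. Bisulfite sequencing reads 5-methylcytosine and 5-hydroxymethylcytosine as one signal, here called methylation, and the libraries are bulk DNA, in which a change in every cell and a change in some of the cells look alike.

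Promoter sequences were in the RefSeq tables (GRCm38.p6, the assembly that mm10 names) for 9 of the 10 genes, Piwil2 being the exception. Each holds 250 bases before and 50 bases after the annotated start. The first 3 shown, of Asz1, Tdrd12 and Mov10l1, are those whose libraries lay lower in both Ogt iKO samples than in both controls. Capitals mark each CpG, the site that was measured. They lie at chr6:18109012-18109311 (minus strand), chr7:35537695-35537994 (minus strand) and chr15:88982744-88983043 (plus strand).
Asz1: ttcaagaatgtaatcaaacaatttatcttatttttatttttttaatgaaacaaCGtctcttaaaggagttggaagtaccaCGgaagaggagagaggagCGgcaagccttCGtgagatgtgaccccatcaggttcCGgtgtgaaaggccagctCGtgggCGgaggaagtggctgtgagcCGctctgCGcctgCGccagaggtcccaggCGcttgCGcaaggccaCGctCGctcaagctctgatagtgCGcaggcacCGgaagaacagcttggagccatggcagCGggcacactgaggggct
Tdrd12: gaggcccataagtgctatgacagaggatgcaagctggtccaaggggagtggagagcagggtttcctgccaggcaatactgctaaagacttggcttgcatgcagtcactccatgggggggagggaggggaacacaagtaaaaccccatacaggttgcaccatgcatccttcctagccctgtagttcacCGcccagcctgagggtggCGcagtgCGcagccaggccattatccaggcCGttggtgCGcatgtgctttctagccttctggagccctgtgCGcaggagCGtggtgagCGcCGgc
Mov10l1: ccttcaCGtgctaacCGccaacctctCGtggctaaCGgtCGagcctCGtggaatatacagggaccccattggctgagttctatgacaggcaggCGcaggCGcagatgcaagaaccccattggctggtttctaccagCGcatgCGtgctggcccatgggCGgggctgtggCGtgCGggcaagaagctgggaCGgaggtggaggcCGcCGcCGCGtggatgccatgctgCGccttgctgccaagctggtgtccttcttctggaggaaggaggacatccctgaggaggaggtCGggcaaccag
The next 2 belong to the genes whose 1 kb islands, defined below, had the lowest control means, Mael at chr1:166238695-166238994 (minus strand) and Tdrd1 at chr19:56825959-56826258 (plus strand).
Mael: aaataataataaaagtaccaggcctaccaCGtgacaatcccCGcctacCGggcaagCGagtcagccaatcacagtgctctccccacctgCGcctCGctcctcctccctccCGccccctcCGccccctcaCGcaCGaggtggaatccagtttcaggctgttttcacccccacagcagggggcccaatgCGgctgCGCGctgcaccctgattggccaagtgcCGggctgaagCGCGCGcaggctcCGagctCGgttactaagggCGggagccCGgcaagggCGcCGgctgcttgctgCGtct
Tdrd1: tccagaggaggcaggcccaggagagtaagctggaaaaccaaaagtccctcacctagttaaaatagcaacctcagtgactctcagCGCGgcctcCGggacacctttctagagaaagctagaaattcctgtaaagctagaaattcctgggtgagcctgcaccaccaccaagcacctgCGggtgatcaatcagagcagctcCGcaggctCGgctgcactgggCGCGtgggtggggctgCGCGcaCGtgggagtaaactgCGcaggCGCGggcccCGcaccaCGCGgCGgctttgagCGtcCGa
The letters CACGTG, the E-box known to be bound by MGA-MAX, occur in 5 of the 9 windows and in 8.01% of 17274 promoter windows of the same length. This motif reads the same on both strands and itself holds a CpG. Its first base lies at -223 in Mael, -11 in Tdrd1, -246 in Mov10l1, -165 and -95 in Tdrd9, and -179 and -154 in Piwil1, counted from the start. An E2F motif, GCGGGA on one strand or TCCCGC on the other, was found in 1 of the 9 (Mael) and in 26.1% of all windows. A match in letters is a description and no evidence of binding. Of the 142 CpGs in the 9 windows, 141 were listed at exactly that position in the deposited tables and 94 had a read in every library.

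The libraries held between 64273609 and 79929994 reads over CpGs, counted once at each CpG, a mean depth of 3.36 to 4.05 reads per listed CpG. Methylation over the 16341360 CpGs with a read in every library was 64.0% ± 1.60 (SD, n = 2) in Ogt iKO and 72.0% ± 2.64 in control, a difference of -7.98 points over the whole genome. Of the stem cell genes, Pou5f1 had 0% to 5.13% at its island and Nanog 2.80% to 6.06%. Esrrb had 40.7% to 79.3% at its island and 0% to 2.20% in the most CpG-dense kb of the gene and its flanks. Zfp42 had 20.8% to 54.2% at its island and 0% to 8.33% in the kb centred on its start. Islands of the fibroblast genes Col1a1, Col1a2, Twist1 and Prrx1 were also at 0% to 9.68%, so these islands do not separate stem cells from feeders. Regions of both sets of markers were also lower in Ogt iKO. Islands lay lower without overlap in 2 of 4 stem cell genes (Pou5f1, and Esrrb with adjusted p = 0.306) and 0 of 4 fibroblast genes, and bodies in 3 of 4 and 3 of 3 (26.3% of all islands and 86.9% of all bodies). The bodies of Nanog (adjusted p = 0.0320) and Col1a1 (adjusted p = 0.0122) were called, and the part of these in the results was not tested. Transcripts of Ogt were not measured by this assay, and its deletion was not checked here. With 2 libraries against 2, an exact permutation test cannot give a two-sided p below 0.333, and tests therefore rest on a model fitted across all genes.

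For each gene the kb with the most CpGs at either gene end was taken as its island, and the interior more than 2 kb from both ends as its body. In controls the islands of these genes were methylated, from 22.2% ± 3.34 (SD, n = 2) at Mael to 88.7% ± 3.36 at Piwil2. Between them, in rising order, stood Tdrd1 at 27.2% ± 19.4, Tdrd12 at 39.4% ± 6.09, Piwil1 at 53.8% ± 3.45, Mov10l1 at 61.8% ± 2.57, Asz1 at 64.1% ± 12.0, Tdrd9 at 69.1% ± 11 and Piwil4 at 82.8% ± 4.37. Control libraries overlapped between Mael and Tdrd1, Tdrd1 and Tdrd12, Mov10l1 and Asz1, Asz1 and Tdrd9, Mov10l1 and Tdrd9, and Piwil1 and Asz1, so the order within those pairs does not exceed the spread. All 9 testable islands had a mean over the 4 libraries of at least 20%, as had 34.7% of the 20273 islands tested. The islands of Piwil2 and Piwil4, the highest of these, are not shown to be promoters. In the kb centred on the Piwil4 start the control mean was 34.45% ± 19.7. It was 27.5% ± 5.55 in the most CpG-dense kb of Piwil2. Gtsf1 kept 3 CpGs with reads in every library and was not tested. The Wilson 95% interval of an island in 1 library was between 13.0 and 32.5 points wide over the 9 tested genes with a median of 20.1, and of a body 4.48 points. These intervals cover counting error only. Reads of a region are summed over its CpGs throughout, so a read over several CpGs is counted at each of them. The intervals treat these counts as independent and can be too narrow.

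**Figure D1:**
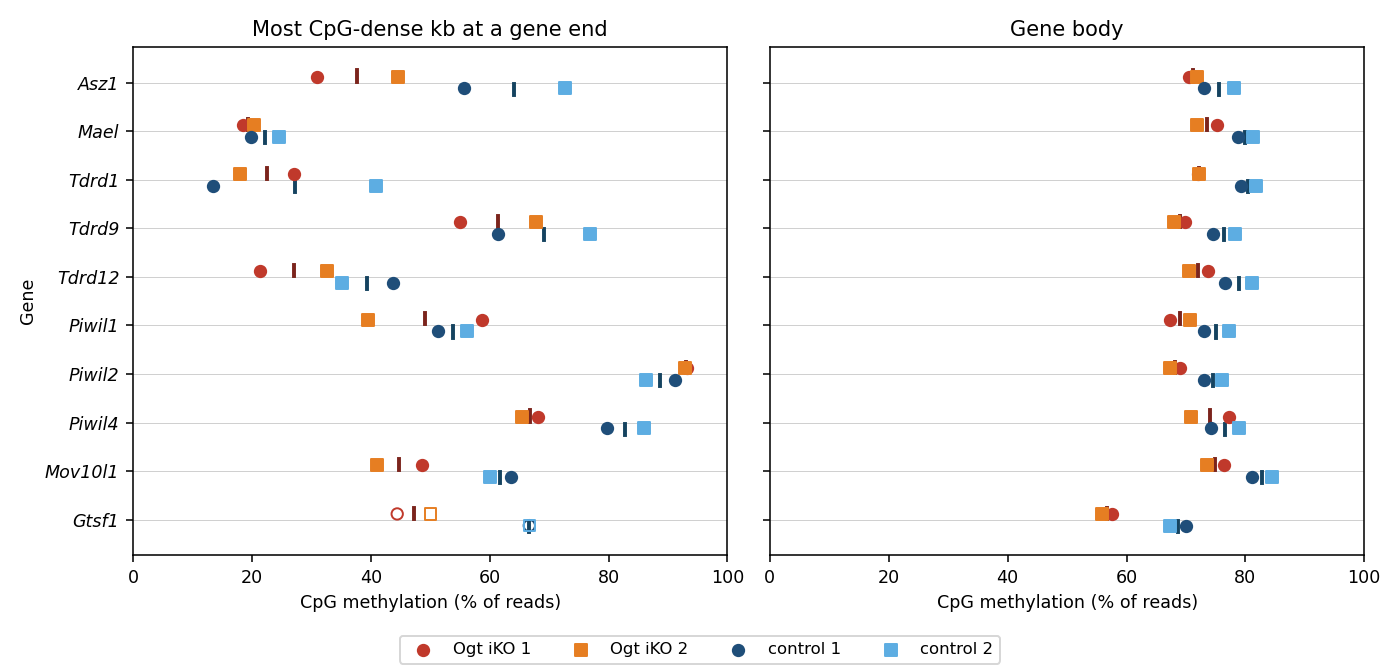
CpG methylation (percent of reads) of each piRNA pathway gene in the island (left) and the body (right); every point is 1 library, red and orange for Ogt iKO and blue for control, and short vertical lines are group means. Island libraries of Asz1, Mov10l1, Piwil4 and Tdrd12 lie lower in both knockouts than in both controls, those of Piwil2 lie higher, and the open symbols of Gtsf1 rest on 3 CpGs; body libraries lie apart in all genes but Piwil4.

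Asz1, which encodes a scaffold of the germ granules that sit on mitochondria, had the largest difference of the 9 islands. Its 27 usable CpGs at chr6:18108561-18109560, around the start of the gene, were methylated at 30.9% and 44.6% in Ogt iKO and at 55.7% and 72.6% in control. Both knockouts lay below both controls, with a difference of -26.4 points between means. Of single CpGs, 21 were lower in the knockout mean, 5 higher and 1 equal. The model adjusted over all islands did not call the difference (adjusted p = 0.181). In the 500 bp before the start the values were 15.3% and 43.2% against 53.8% and 66.7%. In the 300-base window printed above they were 7.69% and 34.5% against 38.7% and 63.0%. The knockouts stand far apart there, and the second one lies near the lower control. Methylated reads, summed over the CpGs of the whole island, numbered 30 of 97 in the first knockout, a Wilson 95% interval of 22.6% to 40.7%.

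Mov10l1, the RNA helicase that binds piRNA precursors and starts their processing, had 34 usable CpGs at chr15:88982391-88983390, over its start. The neighbouring gene Mlc1 overlaps this island, and reads over the shared stretch cannot be assigned to either gene. Levels were 48.6% and 41.0% in Ogt iKO and 63.6% and 60.0% in control. The groups did not overlap, and the difference of -17.1 points was not called (adjusted p = 0.508). With no read minimum the difference was -10.9 points. The 500 bp before the start held 41.8% and 36.8% against 59.3% and 39.5%, and the groups overlapped. The 500 bp after the start held 41.3% and 45.0% against 57.9% and 73.1%, with no overlap. In the 300-base window, on 9 CpGs and 13 to 26 reads per library, values were 0% and 10.5% against 38.5% and 26.9%. Single CpGs of the island were lower in 23 cases, higher in 10 and equal in 1.

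The Tudor proteins bind the methylated arginines of PIWI proteins and bring the processing machinery together. Tdrd12, a Tudor protein with a helicase domain, had 21.3% and 32.7% in Ogt iKO and 43.8% and 35.1% in control at chr7:35537284-35538283. Both knockouts lay below both controls, on 16 CpGs and 32 to 61 reads, and the difference of -12.4 points was not called (adjusted p = 0.843). Leaving out 1 library gave -18.1 to -6.75 points, the smallest without the first knockout, and -8.13 without the first control. The densest kb, which lies mostly inside the gene, gave -0.42 points with overlap. The 500 bp before the start had 19.0% and 9.52% against 54.2% and 40.0%, and the 500 bp after it had 22.5% and 48.4% against 12.5% and 25.0%. The groups overlapped in the second of these windows, where 1 library had 8 reads, and the difference between the windows was not tested. Within the 300-base window the 8 CpGs held 0% and 4.76% against 29.4% and 23.8%.

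Tdrd9, the helicase partner of the nuclear PIWI protein, had 55.0% and 67.7% against 61.4% and 76.9% at chr12:111970988-111971987, and the groups overlapped (adjusted p = 0.847). Tdrd1, the partner of the PIWI protein MILI, had 27.1% and 18.0% against 13.5% and 40.9% at chr19:56825671-56826670 (adjusted p = 0.865). Its knockouts lay between the 2 controls, and without the second control its difference turned from -4.65 to 9.06 points. Mael, which is needed for transposon silencing in the male germ line, had 18.5% and 20.3% against 19.9% and 24.6% at chr1:166238244-166239243 (adjusted p = 0.941). Its island was of mixed level, since 33 of the 50 usable CpGs had a mean below 20%. The 500 bp before the Mael start held 34.3% and 32.1% in Ogt iKO and 46.3% and 48.9% in control, with no overlap. On the other side of that start, the 500 bp inside the gene held 2.94% and 12.6% against 9.0% and 8.45%. The groups overlapped in that low stretch, and the difference between the 2 windows was not tested.

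The PIWI proteins bind the piRNAs themselves. Piwil1, the PIWI protein of meiotic and later male germ cells (MIWI), had 58.8% and 39.6% in Ogt iKO and 51.4% and 56.3% in control at chr5:128735571-128736570. The groups overlapped (adjusted p = 1). Piwil2 (MILI) was the only gene of the 9 with a higher pooled level, 93.2% and 92.9% against 91.1% and 86.4%, at chr14:70372977-70373976 (adjusted p = 0.885). As an unweighted mean over its 15 CpGs the difference was -4.11 points. The tables give no start or strand for Piwil2, and this kb is not known to be its promoter. Its densest kb, inside the gene at chr14:70428477-70429476, held 39 listed CpGs, of which 32 were usable. Levels there were 32.2% and 19.3% in Ogt iKO and 31.4% and 23.6% in control, and the groups overlapped. For Piwil4 (MIWI2), the nuclear PIWI protein, the island lay at the 3′ end, chr9:14702276-14703275, and does not hold the start. There levels were 68.1% and 65.5% against 79.7% and 85.9%, with no overlap and a difference of -16.0 points that was not called (adjusted p = 0.529). As an unweighted mean of CpGs it was -9.16 points, and with islands moved in 50 bp steps, which picked another kb, -5.95 points. In the kb centred on the Piwil4 start they were 33.3% and 27.8% against 48.4% and 20.5%, and the groups overlapped. Gtsf1, a small zinc finger protein that helps PIWI proteins cut RNA, had 44.4% and 50.0% against 66.7% and 66.7% on 3 CpGs and 4 to 18 reads, which is too thin for a test. With no read minimum its 25 listed CpGs held 38.8% and 56.9% against 42.2% and 82.1%, and the groups overlapped.

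**Figure D2:**
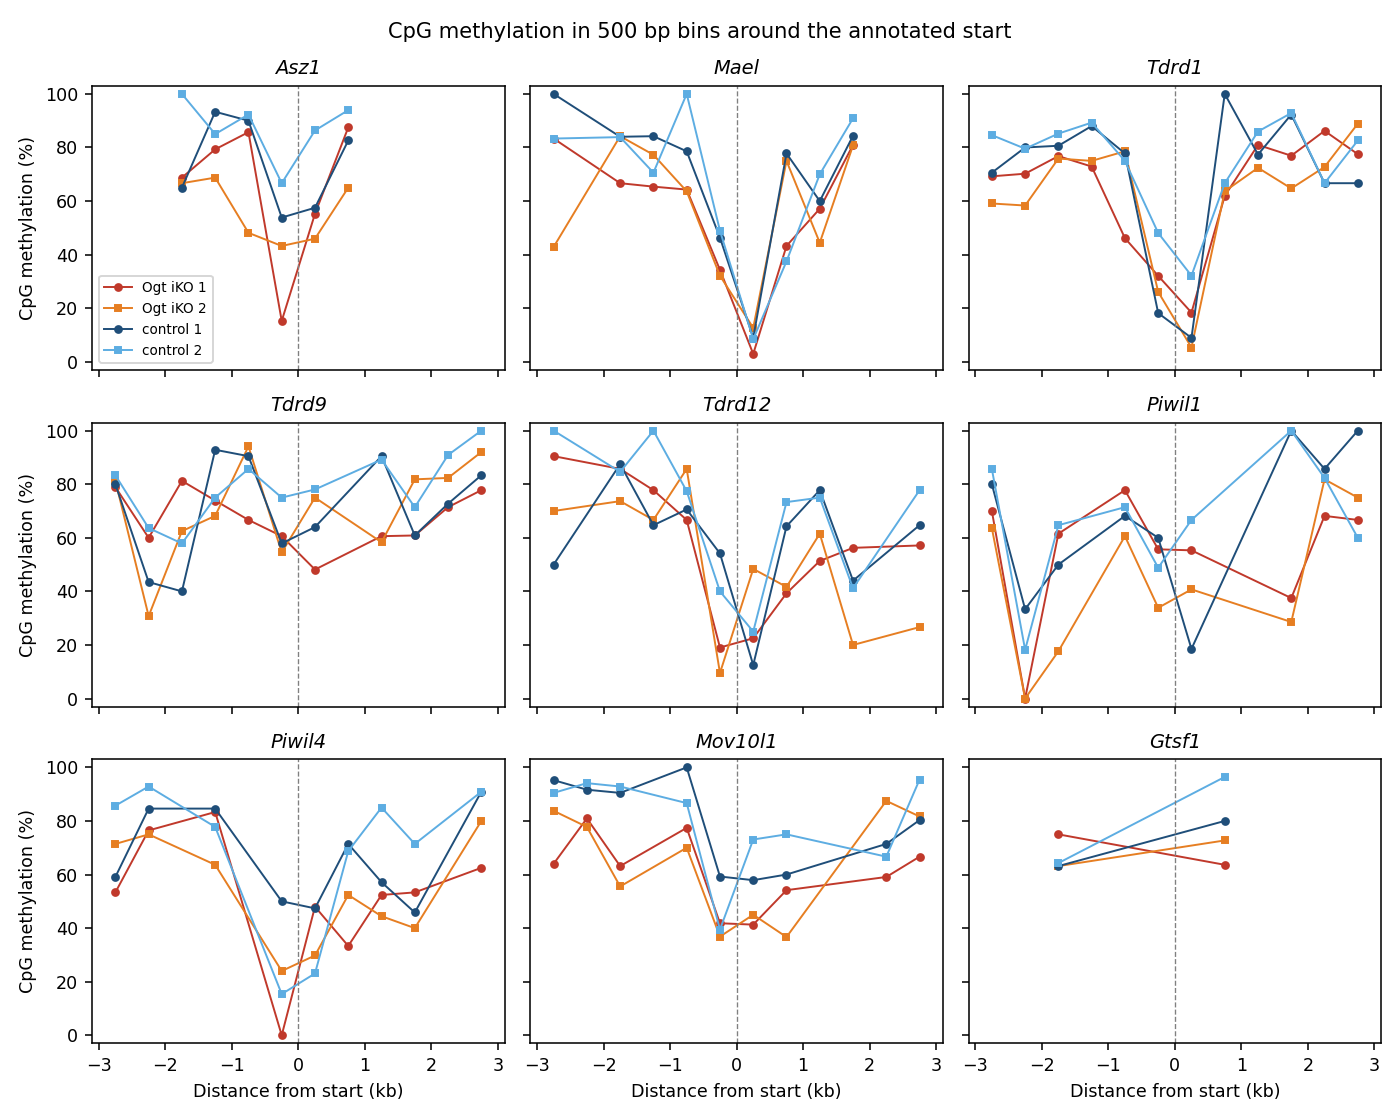
CpG methylation (%) in 500 bp bins against distance from the annotated start (kb, negative before the gene) for the 9 genes with a known start; each line is 1 library and bins with fewer than 3 usable CpGs are left out. Levels dip at the start in Mael, Tdrd1, Tdrd12 and Mov10l1, and the 2 knockout lines lie below both controls just before the start in Asz1, Mael and Tdrd12.

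Averaged over the genes with at least 3 usable CpGs in a bin, methylation was lowest next to the start in both groups. Single genes departed from this, among them Tdrd9 and Piwil1, which was lowest between 2500 and 2000 bp before its start. The 500 bp before the start held 32.4% and 32.5% in Ogt iKO and 50.0% and 47.8% in control over 8 genes, a difference of -16.4 points. The first 500 bp of the genes held 36.5% and 37.9% against 34.5% and 49.1%, a difference of -4.62 points. Of the other 10 bins within 3 kb, 9 had a lower mean in Ogt iKO, with differences from -18.4 to -7.25 points. The bin from 2000 to 2500 bp after the start, on 4 genes, differed by 0.77 points. Single genes rest on few reads in such bins. With at least 5 usable CpGs, the 500 bp before the start lay lower without overlap in 3 of 8 genes (Asz1, Mael and Tdrd12), as in 18.5% of such windows of all genes. All 8 windows had a mean of 20% or more, a class in which 38.3% of all windows lay lower without overlap. After the start this was so in 2 of 8 (Asz1 and Mov10l1), against 13.5% of all, and in 2 of the 6 at 20% or more, against 39.6%. In the 300-base window it was so in 3 of 7 (Asz1, Tdrd12 and Mov10l1), against 7.45% of all, and in 1 of the 4 at 20% or more, against 35.2%. Tdrd12 and Mov10l1 lay below that class in this window, with control means of 26.6% and 32.7%. The class uses the mean over all 4 libraries, so low knockout levels can take a gene out of it.

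Over all islands the model called 0 of the 9 genes, where 0.0987% of 20273 islands were called lower and 0.00493% higher. To be called, an island had to pass an adjusted p of 0.05 and differ by 10 points or more. A gene that was not called is not shown to be unaffected, since at this depth the model finds few moderate differences. edgeR and limma called 0 of all islands, so their 0 of 9 says nothing about these genes. In the model 3 of 9 had an unadjusted p under 0.05, against 8.98% of all islands and 1076 of the 7029 with a mean of at least 20%. Levels were lower in 8 of 9 (62.0% of all islands). They were lower with no overlap in 4 of 9 (26.3% of all) and higher with no overlap in 1 of 9 (6.49%). Most islands of the genome are near 0% and can hardly fall. Among the 7029 islands at 20% or more, 81.8% were lower, 45.3% were lower with no overlap and 0.27% were called lower. The median difference was -7.77 points over the 9 genes, -0.667 over all islands and -8.76 over those at 20% or more. The median of the 9 islands thus lay close to that of other methylated islands. A decrease of 20 points or more, which 1 of the 9 genes (Asz1) had, was found in 12.9% of the islands at 20% or more.

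**Figure D3:**
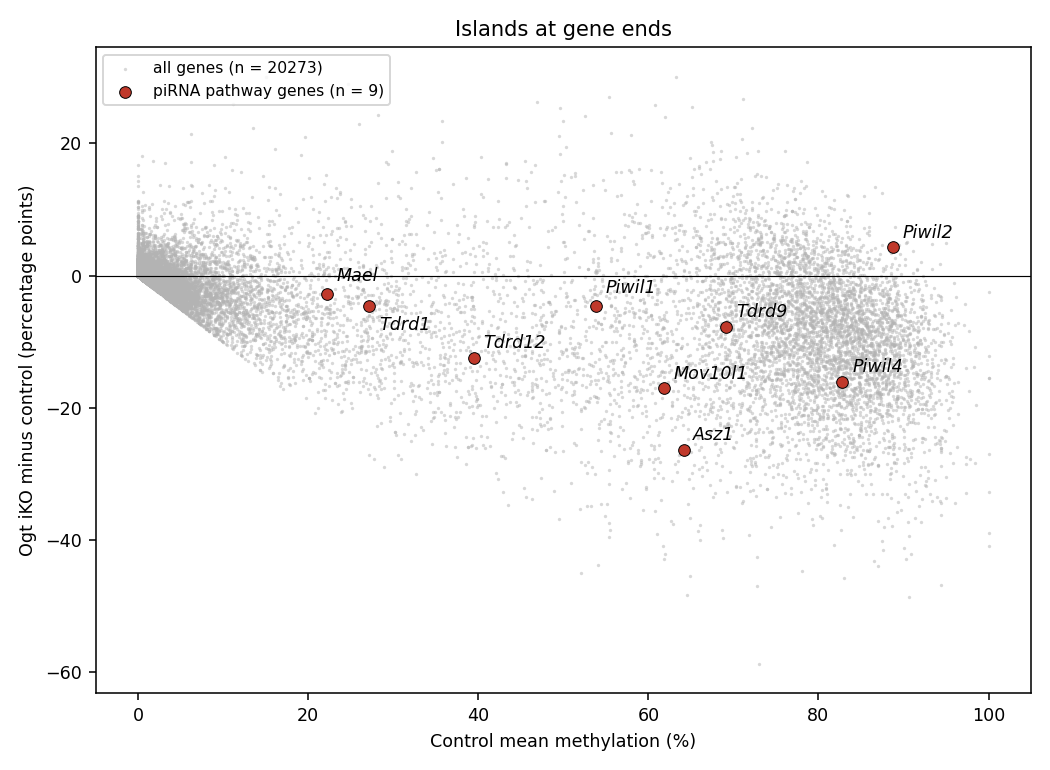
Difference between Ogt iKO and control (percentage points) against the control mean (%) for every island tested; grey points are all 20273 genes and red points the 9 piRNA pathway genes. Of the 9, 8 lie below the zero line, Asz1 lowest at -26.4 points and Piwil2 above it, all within the cloud of other methylated islands.

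As a mean over the 9 islands, each library in turn stood at 46.8% and 46.9% in Ogt iKO and at 53.3% and 59.9% in control, a difference of -9.72 points. The same mean over all islands differed by -3.56 points. Over the 10 bodies the libraries stood at 70.9% and 69.3% against 75.3% and 78.4%, a difference of -6.83 points, and over all bodies by -8.69 points. These means are descriptions with no test, since the genes were chosen with results known.

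Gene bodies were highly methylated in both groups. All 10 were lower in Ogt iKO (97.5% of 16401 bodies) and 9 had no overlap between groups (86.9%), Piwil4 being the exception and 0 lying higher (0.549%). Of the 10, 6 had an unadjusted p under 0.05 (58.4%) and 5 had an adjusted p under 0.05 in the model, namely Tdrd1, Tdrd9, Mov10l1, Piwil2 and Tdrd12, against 47.1% of all bodies. None reached the size of 10 points as well, so 0 of 10 were called, against 18.4% of all bodies. The median difference was -6.61 points over the 10 and -8.50 over all bodies. Tdrd1 had 72.1% and 72.1% in Ogt iKO and 79.3% and 81.7% in control over 449 CpGs, a difference of -8.39 points (adjusted p = 0.0129). Tdrd9 had 69.9% and 68.0% against 74.5% and 78.3% over 990 CpGs (adjusted p = 0.0141). Mov10l1 had 76.3% and 73.5% against 81.1% and 84.4% over 550 CpGs (adjusted p = 0.0169). In these 3 bodies, and in those of Piwil2, Gtsf1 and Mael, the gap between the nearest libraries of the groups exceeded that between replicates. Piwil2 had 69.0% and 67.4% against 73.1% and 76.1% (adjusted p = 0.0386). Tdrd12 had 73.6% and 70.5% against 76.6% and 81.1% (adjusted p = 0.0411). Without the second knockout 0 of the 10 bodies had an adjusted p under 0.05 (17.0% of all bodies). Without the first knockout it was 2 (32.0%), and without the second control 3 (28.1%). With at least 5 reads per CpG, Gtsf1, Piwil1 and Piwil4 kept too few CpGs for a test, and 16 were left in Tdrd1. None of the bodies still tested passed (23.3% of all bodies tested there). Differences moved to -1.64 points in Tdrd1, -12 in Tdrd9, -9.86 in Mov10l1, -4.15 in Piwil2 and -4.25 in Tdrd12.

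The largest body difference was in Gtsf1, with 57.5% and 55.9% in Ogt iKO and 70.1% and 67.2% in control over 85 CpGs. The difference of -11.9 points missed the threshold in the model (adjusted p = 0.0513), while edgeR (adjusted p = 0.0147) and limma on logit levels (adjusted p = 0.0428) called it. Other gene models overlap Gtsf1 (Gm52195), Tdrd9, Tdrd12, Piwil2, Piwil4 and Mov10l1, and reads over those stretches cannot be assigned to either gene. The remaining bodies did not pass the test. Mael had 75.2% and 71.8% against 78.7% and 81.2% (adjusted p = 0.115), and Piwil1 had 67.3% and 70.6% against 73.0% and 77.3% (adjusted p = 0.170). Asz1, with the largest island difference, had one of the smallest in its body, 70.6% and 71.9% against 73.0% and 78.1% (adjusted p = 0.207). In Piwil4 the values were 77.2% and 70.8% against 74.3% and 78.9%, and the groups overlapped (adjusted p = 0.518).

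**Figure D4:**
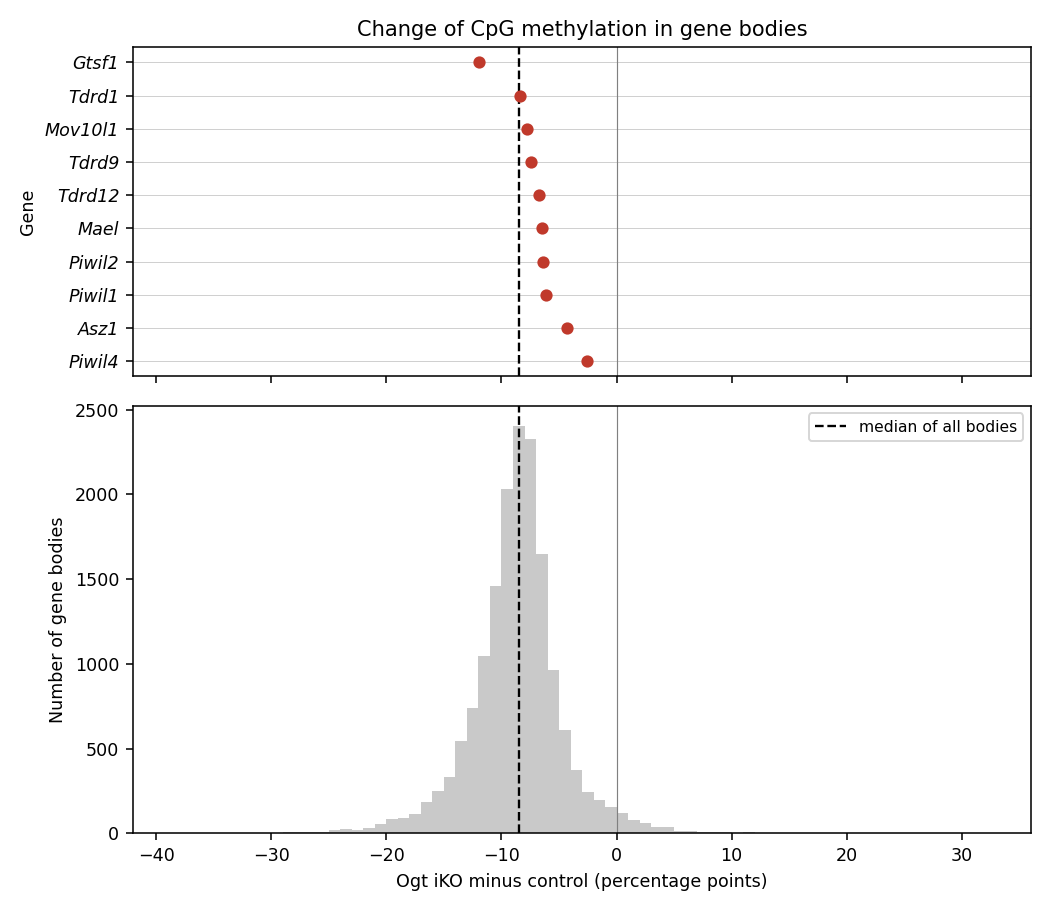
Difference in body methylation between Ogt iKO and control (percentage points) for the 10 genes (upper panel, 1 point per gene) and the number of bodies at each difference among all 16401 tested (lower panel); the dashed line is the median of all bodies, -8.50 points. Gtsf1 at -11.9 lies below that median and the other 9 genes lie at or between it and zero.

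Whether an island changed differently from the body of its own gene was tested with a term for each library, which takes up a shift shared by the whole library. Of the 9 genes 0 passed, against 0.138% of 15942 genes, or 0.0188% in which the island lost more. edgeR was not run on this term, and 1 of 9 had an unadjusted p under 0.05 (5.51% of all). Asz1 was that gene. Its log odds of methylation fell by 0.882 more in the island than in the body (natural log; adjusted p = 0.532). The other 8 genes had an adjusted p of 1. The median over the 9 genes of this log odds difference was -0.11 and over all genes 0.12. It was below zero in 5 of the 9 and in 44.3% of all genes.

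In 500 bp bins over the genes and their flanks, 423 of 1174 bins had at least 5 usable CpGs. Of these, 147 lay lower with no overlap, or 34.8%, against 37.5% of the bins of all genes, and 17 lay higher, against 4.67%. The share of lower bins ranged from 22.0% in Piwil4 to 52.6% in Mael, on 41 and 19 bins. Mean differences per bin ran from -44.9 points in Piwil4 to 26.4 points in the same gene. Inside these genes a few bins away from the ends had low methylation. In Tdrd9 the bin at chr12:112012988-112013487, deep in the gene, held 2.13% and 0% in Ogt iKO and 1.85% and 9.52% in control. The bin before it, at chr12:112012488-112012987, held 8.33% and 0% against 14.3% and 30.8%. A low bin of Gtsf1 at chr15:103410458-103410957 held 8.82% and 2.56% against 11.8% and 27.8%. A further low bin of Tdrd9 at chr12:112024488-112024987 went the other way, with 18.5% and 31.9% against 19.2% and 0%. In Piwil2 a low bin at chr14:70428977-70429476 held 18.6% and 4.92% against 11.1% and 12.3%. Of these 5 bins, the Tdrd9 bin at 112012488 and the Gtsf1 bin lay lower in both knockouts, and the other 3 overlapped between groups.

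Of 22 other genes of the pathway and its silencing machinery, listed from textbook knowledge, 20 were in the gene table. Their islands gave 0 calls of 20 in the model, which called 0.0987% of all islands lower. edgeR and limma called 0 of all islands, so their 0 of 20 says nothing about these genes. In the model an unadjusted p under 0.05 was found in 4 of 20, against 8.98% of all islands and 1076 of the 7029 at 20% or more. Levels were lower in 16 of 20, against 62.0% of all islands, and lower with no overlap in 10 of 20, against 26.3%. The median difference was -6.37 points. Of the 8 islands at 20% or more, 8 were lower (81.8% of that class) and 7 were lower with no overlap (45.3%), and of the 12 below it 3 were lower with no overlap (16.2%). The 3 largest island differences were in Stk31, a Tudor protein of germ cells, Btbd18, a nuclear factor for transcription of piRNA precursors, and Henmt1, which methylates the ends of piRNAs. Stk31 had 25.6% and 38.5% in Ogt iKO and 58.5% and 59.0% in control (adjusted p = 0.339). Btbd18 had 29.1% and 14.1% against 47.0% and 48.9% (adjusted p = 0.104). Henmt1 had 18.2% and 14.3% against 25.2% and 50.0% (adjusted p = 0.165). In all 3 the groups did not overlap, though the 2 controls of Henmt1 stood far apart. The densest kb of Btbd18, which is not its island, held 10.2% and 0.877% against 1.52% and 0.840%, and the groups overlapped. Bodies of 19 of these genes were tested and 19 were lower (97.5% of all bodies). Of them 9 had an adjusted p under 0.05 (47.1% of all) and 3 were called (18.4% of all), which is about the background. At 3 or more reads none of those still tested was called (17.4% of all bodies tested there). The count also moved when 1 library was left out. Tdrd7, a Tudor protein, fell by 10.2 points (67.8% and 64.5% against 73.4% and 79.2%, adjusted p = 0.0186). Pnldc1, the nuclease that trims piRNAs, fell by 11.7 points (72.4% and 66.0% against 79.3% and 82.5%, adjusted p = 0.0258). Dnmt3l, a cofactor of the de novo methyltransferases, fell by 11.1 points (34.1% and 40.1% against 51.3% and 45.1%, adjusted p = 0.0462).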

How the data were processed

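Reads were placed on mm10 by the authors, whose tools were BSMAP and Picard, per the submitters' processing notes; versions and read filters are not given in the sources used here. The deposited columns used here are counts per CpG of methylated reads and of all C or T reads, per the file headers, with both strands merged. A further deposited column is an expected count, the depth corrected for C/T variants. It served, rounded, only as an alternative. Each file was matched to its sample by the genotype and replicate in its name.

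CpGs seen by 1 read or more in each library were pooled with pandas 2.3.3. Islands are the 2 adjacent 500 bp bins, within 1.5 kb of a gene end, with most listed CpGs (at least 5 usable), and bodies need 10. A quasi-binomial model of methylated and total reads was fitted per gene in R 4.3.3, with the dispersion moderated by limma 3.58.1 and kept at 1 or more, an F test and Benjamini-Hochberg adjustment over all genes. edgeR 4.0.16 and limma on logit levels were alternatives. As first designed, the moderation drew on every feature, and islands near zero left it void: in simulated data that fit recovered no island changes. It was therefore restricted to features expecting at least 5 methylated and 5 unmethylated reads in every library, after the first calls had been seen. On simulated data it then recovered most large and few moderate changes, so a missing call does not show that a gene did not change. For the island-against-body term limma gave every gene the same dispersion. Promoter motifs were counted by exact letters. RefSeq (GRCm38.p6) gave gene positions, without exons.

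All 10 genes are named with their values. Of the other pathway genes, those called with the settings above and the 3 with the largest island differences are named. Fkbp6 and Tcfl5 are added below for their differences in alternative settings. Members and lists were chosen with earlier results of these data known.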

Additional observations from a re-analysis of the deposited data

How the results depend on the processing

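None of the 9 islands and none of the 9 island-against-body terms of the piRNA pathway genes was called under any alternative run that tested them. With the higher read minimums none of the 9 was tested, so those runs say nothing about them. Leaving out 1 library leaves a group with a single library, so the missing calls of those runs decide nothing. The adjusted p of Asz1's island ranged from 0.0934 to 0.911, and its difference from -34.8 to -17.9 points when 1 library was left out. With about 3 to 4 reads per CpG, an island difference of several points could not be told from counting error. edgeR, limma on logit levels, unmoderated dispersion and the moderation as first designed called 0 islands of all genes, so these runs say nothing about the 9. For the island-against-body term the same holds unmoderated, with the moderation as first designed and centred on the start. The cause of the changes below was not tested, other than smaller sets of CpGs or libraries where the setting itself removes them.

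Over all genes 21 islands were called. The count was 35 with the C/T-corrected depth, 13 with no read minimum, 3 of 4635 and 2 of 87 tested with at least 3 and 5 reads, 69 for the densest kb anywhere, 54 for islands centred on the start and 59 for islands moved in 50 bp steps. It was 0 with edgeR, with limma on logit levels and with unmoderated dispersion, and 73 (edgeR 0) when only methylated islands were fitted. Leaving out 1 library gave 0 to 84. Of the other pathway genes 1 island was called for the densest kb (0.336% of all 20541 tested there). For islands centred on the start it was 2 (0.363% of all 14866). In both settings the largest fall among these genes was in Fkbp6, with differences of -34.3 and -34.9 points, against -13.5 at its island. Tcfl5 went the other way in both, by 0.18 and 3.52 points, and its groups overlapped.

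Called bodies over all genes numbered 3016, with 710 at 5 or more reads, 0 with unmoderated dispersion, 7731 with no size threshold, 78 at 20 points and 753 to 6312 when 1 library was left out. Of the 10 genes, 1 body (Gtsf1) was called with edgeR, limma and the moderation as first designed (adjusted p = 0.0499), which called 27.5%, 26.4% and 18.2% of all bodies, and 5 with no size threshold. Bodies under the adjusted p numbered 5, with 1 at 3 or more reads (40.3% of all bodies tested there). At 5 or more reads the count was 0 (23.3%), and Gtsf1, Piwil1 and Piwil4 were not tested. It was 0 with unmoderated dispersion (0% of all) and 3 with limma (35.7%), and it moved when 1 library was left out. The next counts can be read beside the share of all bodies called. That share was 18.4% with the main settings and 17.4% at 3 or more reads. It was 0% with unmoderated dispersion, 18.3% with no read minimum and 47.1% with no size threshold. The share too moved when 1 library was left out. Of the other pathway genes 3 bodies were called, with 0 at 3 or more reads, with unmoderated dispersion and at 20 points, 1 with no read minimum, 9 with no size threshold and 0 to 8 leaving out 1 library. The island-against-body term was called in 22 genes, in 0 at 3 or 5 reads, with the moderation as first designed, unmoderated or centred on the start, in 4 with no read minimum and in 5 to 45 leaving out 1 library.

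Some differences of genes that were not called turned sign. Piwil2's island went from 4.28 to -1.78 points for the densest kb and to -4.11 as an unweighted mean of CpGs. Leaving out 1 library gave -18.4 to 9.06 points for the Tdrd1 island, -15.6 to 0.0073 for Tdrd9, -14.3 to 4.97 for Piwil1 and -5.78 to 0.645 for the Piwil4 body. Asz1's body stood at 1.99 points with at least 5 reads. Log odds of island against body turned to 0.0242 (no read minimum) and 0.12 (densest kb) in Tdrd9, 0.34 (densest kb) in Tdrd12, 0.0464 (centred on the start) in Piwil4 and 0.0447 (no read minimum) in Mov10l1. Leaving out 1 library, they ranged from -0.33 to 1.01 in Tdrd1, -0.35 to 0.30 in Tdrd9, -0.56 to 0.18 in Tdrd12 and -0.35 to 0.59 in Piwil1.

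Replicate numbers are shared between the groups, but deviations of same-numbered libraries correlated at -0.0401 over islands and -0.0524 over bodies, so the numbers are not shown to pair the samples. With the replicate block, 2 islands and 1739 bodies of all genes were called. In that run 3 of the 10 bodies were under the adjusted p (30.3% of all bodies), and 1 body of the other pathway genes was called (10.6% of all bodies).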

Other observations

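Among single 500 bp bins with at least 5 usable CpGs, the lowest and the highest difference of each gene were read after their values were seen, so they carry no test. The lowest of all lay in Piwil4 at chr9:14739276-14739775, inside the gene and near its start. It held 51.9% and 31.6% in Ogt iKO and 87.5% and 85.7% in control. Tdrd1 had a bin at chr19:56831171-56831670 with 62.5% and 43.3% against 90.0% and 93.8%. In Mov10l1 the bin at chr15:89020391-89020890 held 61.9% and 21.4% against 85.0% and 70.6%. Ahead of Piwil1, at chr5:128734071-128734570, levels were 5.00% and 4.76% against 33.3% and 31.8%. All 4 of these bins lay lower in both knockouts.

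A few bins went the other way. Tdrd1 at chr19:56863671-56864170 held 77.8% and 70.0% in Ogt iKO and 46.2% and 52.0% in control. Piwil1 at chr5:128739571-128740070 held 35.0% and 48.6% against 7.14% and 33.3%. Asz1 at chr6:18052964-18053463 held 44.4% and 66.7% against 37.5% and 25.0%. In these 3 bins both knockouts lay above both controls.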
